A study of Mus musculus with 16 samples.

Results

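Cycling stromal cells are here the dividing part of the Pdgfra-bearing stromal cells of the testis, whose place in the tissue was not measured. They were taken from whole testes of mice at postnatal day 2. A cell counted as a member when it held at least 1 Pdgfra UMI, at least 4 UMIs of Mki67 and Top2a together, at most 2 Amh UMIs and at most 1 Myh11 UMI. A UMI (unique molecular identifier) stands for 1 captured mRNA molecule. Pdgfra encodes the PDGF receptor of mesenchymal cells, Mki67 and Top2a a proliferation antigen and a DNA topoisomerase of dividing cells, Amh the Sertoli cell hormone and Myh11 the myosin of smooth muscle. The rule left 911 members of 11279 cells that passed the filter and of 12186 barcodes in all, 514 in the wild-type library and 397 in the library labelled Ddx5 knockout, called the knockout-labelled library in what follows. Paired values are given for the wild-type library first. Since the members were chosen by their measured UMIs of these 5 genes, and since each genotype is 1 library, every difference is given as a description with no test, and the intervals are 95% intervals that cover counting error only.

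The study compared wild-type mice with mice that lack the RNA helicase gene Ddx5 in germ cells, in which floxed Ddx5 alleles (Ddx5 flox/flox) were crossed with a Cre transgene under the germ cell promoter Mvh (Mvh-Cre). Stromal cells are not among the cells in which that promoter drives Cre, and transcripts of GFP and CRE were counted as well. The labels number 8 samples for each genotype, 16 in all, all of postnatal day 2, but the barcodes carry only a suffix for the genotype, and the numbered samples could not be told apart. Controls of the study could be wild type or heterozygous by its methods, and the label of this library says wild type. No label pairs a suffix with a genotype, and the suffix of more barcodes was taken as wild type because of the cell numbers in the methods. The second library is named by its label throughout, because the level of the targeted gene was not lower in its germ cells. Reads of this assay lie near one end of the transcript, and which part of Ddx5 is deleted is not given in the sources used here, so this level does not check the label either way. By single-cell qRT-PCR the paper reported less Ddx5 mRNA in sorted germ cells of its knockout mice at this age. In cells with at least 10 germ cell marker UMIs, Ddx5 was at 1163 CPM (UMIs per 1000000; interval 1131 to 1197) in 114 of 6329 wild-type cells and at 1736 (1618 to 1860) in 12 of 4950 cells of the knockout-labelled library, while CRE had 0 UMIs in the first and 20 in the second. In the members, Ddx5 stood at 732 CPM (713 to 752) in wild type and 690 CPM (669 to 711) in the knockout-labelled library, and CRE had 0 UMIs in both.

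The interstitium of the newborn testis holds fetal Leydig cells and a wide stroma of mesenchymal progenitors that carry receptors for PDGF and hedgehog signals and transcription factors such as Tcf21 and Nr2f2. Dividing cells build the replication machinery in S phase, largely through E2F factors, and then the mitotic machinery in G2 and M phase, whose genes are controlled through CHR and CCAAT elements near their start sites by the DREAM complex, MYB-MuvB, FOXM1 and NF-Y. The stroma also lays down collagens and small leucine-rich proteoglycans, matrix proteins that bind collagen fibrils and growth factors.

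As examples picked by hand, the 250 bases before the start site of 4 genes higher in the cycling cells, and of Ogn, which was lower, were read from RefSeq (build GRCm38.p6), 5′ to 3′ on the strand of the gene. Where a gene has several starts, the window with the most matches to the motifs named below is shown. The genes are Ccnb2, a cyclin of mitosis (chr9:70421555-70421804, minus strand), Hmmr, a spindle protein (chr11:40733438-40733687, minus strand), Prc1, a crosslinker of the spindle midzone (chr7:80294226-80294475, plus strand), Kif15, a spindle kinesin (chr9:122950831-122951080, plus strand), and Ogn, the proteoglycan osteoglycin (chr13:49607765-49608014, plus strand). Capitals mark the CHR core TTTGAA, the NF-Y motif CCAAT or an E2F motif, and one on the opposite strand is printed as its reverse complement.
Ccnb2: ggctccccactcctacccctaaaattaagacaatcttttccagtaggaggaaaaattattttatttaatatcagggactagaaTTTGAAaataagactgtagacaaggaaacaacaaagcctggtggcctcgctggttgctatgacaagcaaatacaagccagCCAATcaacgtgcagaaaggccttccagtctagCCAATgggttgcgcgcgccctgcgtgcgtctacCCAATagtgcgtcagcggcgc
Hmmr: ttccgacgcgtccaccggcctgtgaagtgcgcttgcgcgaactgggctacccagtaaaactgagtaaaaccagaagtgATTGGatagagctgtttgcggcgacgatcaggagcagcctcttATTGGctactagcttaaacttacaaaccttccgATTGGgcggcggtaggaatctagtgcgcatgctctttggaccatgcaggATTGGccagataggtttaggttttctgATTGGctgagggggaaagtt
Prc1: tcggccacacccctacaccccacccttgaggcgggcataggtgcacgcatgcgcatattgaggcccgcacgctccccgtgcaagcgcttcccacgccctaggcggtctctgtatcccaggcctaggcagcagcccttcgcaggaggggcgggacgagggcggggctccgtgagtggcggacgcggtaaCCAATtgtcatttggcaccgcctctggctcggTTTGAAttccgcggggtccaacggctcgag
Kif15: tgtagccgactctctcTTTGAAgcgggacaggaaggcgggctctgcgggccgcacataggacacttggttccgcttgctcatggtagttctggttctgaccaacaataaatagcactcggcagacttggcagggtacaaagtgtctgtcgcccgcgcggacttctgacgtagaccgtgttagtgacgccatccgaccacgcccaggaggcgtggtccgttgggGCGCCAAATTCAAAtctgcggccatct
Ogn: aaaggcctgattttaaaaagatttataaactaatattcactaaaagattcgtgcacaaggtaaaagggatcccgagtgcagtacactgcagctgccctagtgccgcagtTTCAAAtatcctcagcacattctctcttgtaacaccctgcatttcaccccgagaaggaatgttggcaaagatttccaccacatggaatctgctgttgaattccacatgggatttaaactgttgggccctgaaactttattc

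Ccnb2 held TTTGAA 167 bases and CCAAT 87, 54 and 21 bases before the start, and Hmmr held 5 CCAAT, all on the opposite strand. Prc1 held CCAAT 62 and TTTGAA 30 bases before the start shown, and before another of its starts only a CCAAT was found, at 37 bases. Kif15 held TTTGAA at 234 bases and, on the opposite strand, at 19 bases, where it adjoined TTTGGCGC at 27. In Ogn the only match was a TTTGAA on the opposite strand 141 bases before the start. A match is a run of letters and not a measured binding site.

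Of the 5382 cells that met the limits on Pdgfra, Amh and Myh11, 2878 were wild type and 2504 of the knockout-labelled library. Members made up 17.9% of them (Clopper-Pearson interval 16.5 to 19.3) in wild type and 15.9% (14.4 to 17.3) in the knockout-labelled library. Cells of the same limits with 0 or 1 UMI of Mki67 and Top2a, 2265 and 2020 in number, served as the non-cycling stromal cells, and 99 and 87 cells with 2 or 3 UMIs entered neither class. For comparison with another dividing cell type, Sertoli cells (at least 10 Amh UMIs, no Pdgfra) were split by the same Mki67 and Top2a limits, and 599 of 1553 and 461 of 1099 were cycling. Just outside the threshold, the cells with 3 UMIs of Mki67 and Top2a had a median of 11 S phase list UMIs in both libraries and 39 and 57 G2/M list UMIs. Just inside it, the cells with 4 UMIs had medians of 17.5 and 16 S phase UMIs and 62 and 74 G2/M UMIs. The non-cycling cells had medians of 8 and 14 in both libraries.

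A member held a median of 24 UMIs of Mki67 and Top2a in wild type and 28 in the knockout-labelled library, 5 UMIs of Pdgfra in both, 3 of Mxd3 in both, and 10 and 11 of Pclaf. Members were deeper than the cells they were compared with, and how far the limits on raw UMIs bear on this was not tested. Their median depth was 14162 and 14851 UMIs, with 4350 and 4481 genes, against 9109 and 9236 UMIs and 3237 and 3250 genes in the non-cycling cells. Levels are therefore given as CPM of the UMIs summed over a class and library, and shares of cells after each cell was thinned to 5000 UMIs. Mitochondrial genes took a median of 1.81% and 1.74% of a member's UMIs, near the 1.91% and 1.84% of the non-cycling cells. Scrublet, which scores each cell against simulated doublets, called 17 members (3.31%) and 22 (5.54%), a higher share than the 0.706% and 0.941% of the non-cycling cells. Between the libraries 12 barcodes were shared, and 2 members carried one of them.

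The stromal label was checked against markers of stroma and of other testis cell types. Pdgfra was part of the rule and was left out of the stromal sum. The other 7 stromal markers (Dlk1, Ogn, Dcn, Col1a1, Col3a1, Tcf21 and Nr2f2) summed to a median of 124 UMIs a member in wild type and 131 in the knockout-labelled library, and 512 of 514 and 397 of 397 members held at least 5. In the cycling Sertoli cells the median of this sum was 1 UMI in both libraries. Sertoli markers had a median of 1 UMI, with 46 and 26 members at 5 or more UMIs, endothelial markers a median of 2, with 78 and 51 members, and Leydig markers a median of 2, with 61 and 41 members against 289 and 226 of the cycling Sertoli cells. These were 8.95% and 6.55%, 15.2% and 12.8%, and 11.9% and 10.3% of members. In the non-cycling stromal cells, which were shallower, the shares were lower, at 3.89% and 3.22%, 4.50% and 4.95%, and 6.09% and 5.94%. As levels, members and non-cycling cells had 132 and 130 against 150 and 123 CPM of Sertoli markers and 165 and 141 against 160 and 163 CPM of endothelial markers. For Leydig markers the levels were 192 and 454 against 981 and 842 CPM. Macrophage and germ cell markers had a median of 0, with 2 and 3 and with 6 and 1 members at 5 or more. Neutrophil markers reached at most 3 and 1 UMIs in any member and glial markers 2 and 3. Myoid markers without Myh11, which the rule capped (Acta2, Tagln, Cnn1, Actg2 and Des), reached 5 UMIs in 46.7% and 48.1% of members and in 32.1% and 30.9% of the non-cycling cells, which held fewer UMIs a cell. As levels they summed to 745 and 729 CPM in the members against 786 and 717 CPM. The part of these cells in the results was not tested, apart from an alternative without cells that hold 5 or more UMIs of Sertoli, macrophage, neutrophil, germ cell, erythroid or endothelial markers.

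Genes of the cell cycle were higher in the members, and fewer genes were lower, among them the matrix genes Ogn and Aspn and the G1 cyclin gene Ccnd2, beside transcription factors of the interstitium that stayed near their non-cycling level. A gene was counted as higher or lower when its CPM, with 1 CPM added, differed at least 1.5-fold in the same direction in both libraries, among genes with a mean of at least 10 CPM over the 4 sums. Of 8816 such genes 866 (9.82%) were higher and 318 (3.61%) lower in the cycling cells, and 159 were at least 8-fold higher against 46 at least 2-fold lower. The median log2 ratio of all genes was 0.01 in both libraries. Since members are deeper, the same gene could be lower in CPM and not lower per cell, and 281 of the 318 lower genes also had fewer UMIs per cell in both libraries. After thinning to 5000 UMIs a cell, 783 of the 866 higher and 239 of the 318 lower genes kept their call.

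**Figure D1:**
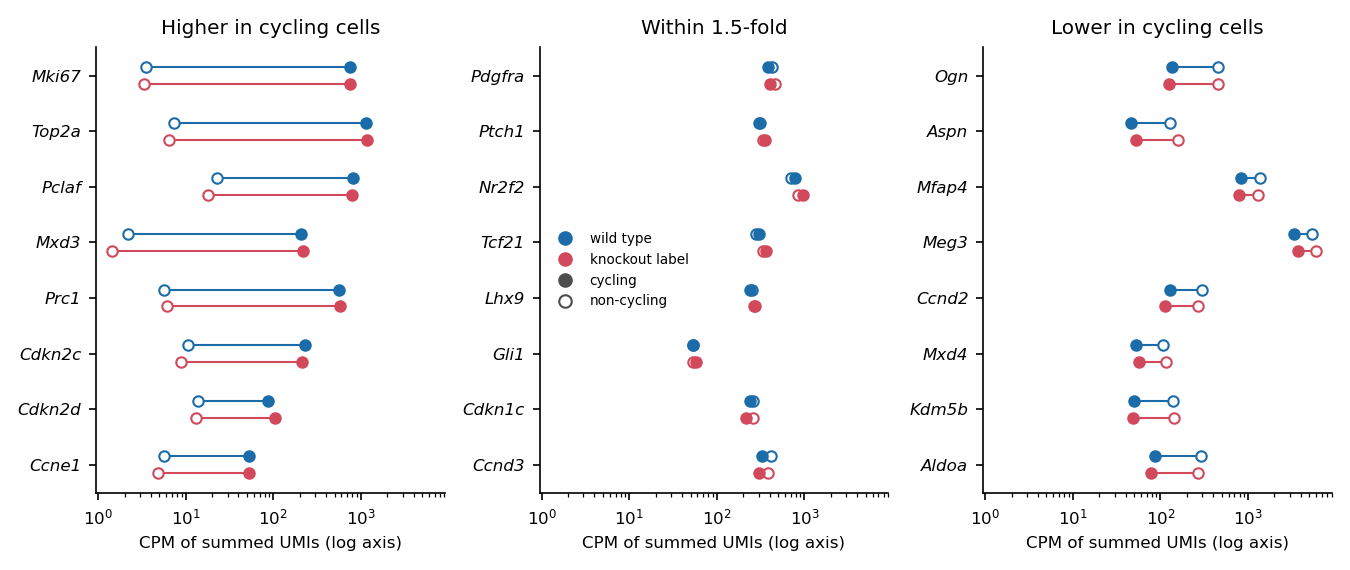
Level of 24 genes in CPM (log axis) in non-cycling (open) and cycling (filled) stromal cells of the wild-type library (blue) and the knockout-labelled library (red), each point 1 sum of UMIs over a class. The left panel holds genes such as Mxd3, which went from 2.22 to 209 CPM in wild type, the middle panel genes within 1.5-fold such as Lhx9, at 250 and 238 CPM, and the right panel genes such as Ogn, at 452 and 135 CPM.

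The genes that the rule used set the scale. Mki67 was at 753 and 747 CPM in the members of the wild-type library and the knockout-labelled library, against 3.56 and 3.38 in the non-cycling cells, and Top2a at 1135 and 1179 CPM against 7.35 and 6.45. Of the Seurat S phase list 40 of 43 genes were higher and 0 lower, with a median log2 ratio of 1.90 in wild type and 1.92 in the knockout-labelled library, and of the G2/M list 51 of 52 were higher and 0 lower, with medians of 4.66 and 4.89. Both lists, with Mki67 and Top2a, took 2.24% and 2.28% of the members' UMIs against 0.297% and 0.284% in the non-cycling cells. Genes of both lists move with the markers that chose the cells and are given as a description of the phase of the members.

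Among the replication genes, Rrm2, the small subunit of ribonucleotide reductase, was at 142 and 148 CPM against 6.15 and 5.78. E2f8, a repressor of the E2F family, was at 35.7 and 37.5 CPM against 0.555 and 0.563. Pclaf, which binds the replication clamp PCNA, was 36 times (32.8 to 39.6) and 43.8 times (39.3 to 49) its non-cycling level, at 809 and 787 CPM. All of these separated the classes by more than 10-fold in both libraries. Ccne1, the cyclin of S phase entry, was at 52.3 and 52.8 CPM against 5.60 and 4.86. In the G2/M list the 3 widest gaps were those of Hmmr, at 214 and 209 CPM against 0.971 and 1.13, Nusap1, a microtubule binder of the spindle, at 337 and 396 CPM against 2.22 and 2.81, and Kif23, a kinesin of cytokinesis, at 246 and 265 CPM against 2.17 and 2.30.

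Of 11 cyclins and CDKs counted, 8 were higher and 1 was lower. Ccna2 stood at 297 and 309 CPM against 2.91 and 3.94, Ccnb1 at 215 and 235 against 2.91 and 2.81, Ccnb2 at 233 and 238 against 10.3 and 7.67, and Cdk1, the kinase these cyclins drive, at 393 and 451 against 20.8 and 20.6. Cdk4, the kinase of the D cyclins, was within 1.5-fold, at 385 and 359 CPM against 292 and 273. Ccnd2, a D cyclin that carries growth signals into G1, was at 128 and 112 CPM in the members against 297 and 271 in the non-cycling cells, a ratio of 0.431 (0.402 to 0.461) and 0.413 (0.381 to 0.447). Its mean per cell went from 2.84 to 1.85 UMIs in wild type and from 2.62 to 1.71 in the knockout-labelled library. Ccnd3 stood at 325 and 305 CPM against 412 and 381, within 1.5-fold. Ccnd1 lay under the filter on low values, at 8.75 and 5.94 CPM against 4.16 and 3.99.

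CDK inhibitors, which hold cyclin-dependent kinases in check, were mostly higher in the dividing cells. Cdkn2c, which encodes the INK4 inhibitor p18 of CDK4 and CDK6, was at 231 and 215 CPM against 10.6 and 8.80, a ratio of 21.8 (19 to 25.1) and 24.4 (20.8 to 28.8). Cdkn2d, another INK4 gene, was at 87.1 and 104 CPM against 13.6 and 13.1, a ratio of 6.38 (5.55 to 7.35) and 7.95 (6.87 to 9.23). Cdkn1b, which encodes p27, was at 74.1 and 75.6 CPM against 46.0 and 45.6. The imprinted inhibitor Cdkn1c, p57, was within 1.5-fold, at 239 and 215 CPM against 262 and 260. Cdkn1a, Cdkn2a and Cdkn2b lay under the filter, at 9.69 and 3.8, 9.69 and 4.13, and 0.673 and 0.495 CPM in the members. The 3 higher of the 4 genes counted were thus Cdkn1b, Cdkn2c and Cdkn2d.

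Mxd3 encodes a partner of MAX that competes with MYC. It was at 209 and 219 CPM in the members against 2.22 and 1.43 in the non-cycling cells, a ratio of 94.1 (70.6 to 128) and 153 (105 to 231), and at 5000 UMIs 60.3% and 60.5% of members held a UMI of it against 0.861% and 0.711%. Without thinning these shares were 82.5% and 85.6% against 2.03% and 1.24%. In cycling Sertoli cells it stood at 28.4 and 28.7 CPM, so that the level in the cycling stromal cells was 7.36 times (6.56 to 8.29) and 7.62 times (6.69 to 8.71) as high. Its family member Mxd4 went the other way, at 52.9 and 57.6 CPM in the members against 108 and 116, a ratio of 0.49 and 0.498. Foxm1, the mitotic forkhead factor, was at 56.6 and 61.2 CPM against 1.43 and 1.59. Of 16 transcription factors of the cycle 9 were higher and 1, Mxd4, was lower. Of 13 genes of growth arrest only Ccng2, a cyclin known from resting cells, was past the fold, and it was higher, at 57.9 and 67.2 CPM against 25.9 and 28.5.

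Chromatin and tubulin genes were higher as groups, 15 of 18 and 6 of 10, with none lower. H2ax, the histone variant of the DNA damage response, was at 724 and 742 CPM against 70.6 and 63.3. Stmn1, which destabilises microtubules, was at 2246 and 2377 CPM against 295 and 295, and the lamin gene Lmnb2 at 55.8 and 61.2 against 6.57 and 6.34. Tuba1c was the tubulin gene of the widest gap, at 120 and 127 CPM against 11.0 and 8.90, while Tuba1b stood at 1695 and 1778 CPM against 445 and 436 and Tubb4b at 956 and 955 against 178 and 159. Of 5 DNA methyltransferase and TET genes Dnmt1, which copies methylation to the new strand, was higher, at 145 and 134 CPM against 38.4 and 33.8. The tubulin isotypes are near-identical copies, and how reads were shared among them is uncertain. Cytoplasmic ribosomal protein genes had 0 of 81 past the fold in either direction, but their share of UMIs was 18.1% in the members of both libraries against 22.5% and 22.8%.

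Outside the lists, the 10 genes farthest above the non-cycling level were Esco2, Prc1, Knl1, Aspm, Kif15, Depdc1a, Kif4, Neil3, Plk1 and Pbk. Esco2, which acetylates cohesin in S phase, was at 139 and 166 CPM against 0.647 and 0.563. Prc1 was at 557 and 584 CPM against 5.64 and 6.04, Knl1, a scaffold of the kinetochore, at 234 and 247 against 1.80 and 1.79, and Kif15 at 200 and 211 against 2.45 and 2.81. Plk1, the mitotic polo kinase, was at 85.6 and 95.7 CPM against 0.694 and 0.716. None of the 10 had a level above 10 CPM in the non-cycling cells.

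Of the small leucine-rich proteoglycans and their relatives 3 of 6 counted were lower and 0 higher in the members, with a median log2 ratio of -0.62 and -0.57. Ogn was at 135 CPM in the members of the wild-type library and 124 in those of the knockout-labelled library, against 452 and 457 in the non-cycling cells. Its ratio was 0.299 (0.28 to 0.319) and 0.271 (0.251 to 0.292), and its mean per cell went from 4.31 to 1.95 UMIs and from 4.43 to 1.89. Aspn, which encodes asporin, was at 46.3 and 53.1 CPM against 127 and 160, a ratio of 0.363 (0.324 to 0.406) and 0.333 (0.296 to 0.373). Ecm2, a related matrix gene, was at 14.3 and 13 CPM against 25.2 and 21.6, and came within 1.5-fold under 2 alternatives. Dcn, which encodes decorin and like Ogn is one of the stromal markers, was at 2247 and 2433 CPM against 3115 and 3343, within 1.5-fold, and its mean per cell was higher, at 32.5 and 37.1 UMIs against 29.7 and 32.4.

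Ogn, Aspn and Ecm2 lie side by side, which was looked up after their values were seen. In GRCm38.p6 they stand with another proteoglycan gene, Omd, on the plus strand of chromosome 13, with Ecm2 at chr13:49504810-49532789, Aspn at chr13:49544443-49567565, Omd at chr13:49582462-49592612 and Ogn at chr13:49608015-49624501. All 4 lie inside a single intron, of 161496 bases, of Cenpp, a gene of the inner kinetochore that spans chr13:49464025-49652950 on the minus strand. Cenpp was higher in the members, at 94 and 108 CPM against 7.12 and 7.78, a ratio of 13.2 (11.1 to 15.8) and 13.9 (11.7 to 16.7), so that host and inner genes stood in opposite directions. Omd lay under the filter, at 1.21 and 2.64 CPM against 4.39 and 4.19. The strand setting of the counting is not given in the sources used here, so a share of reads assigned across these overlapping genes remains uncertain.

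Other stromal genes past the fold were few. Of 14 genes of stromal identity 2 were lower and 0 higher, namely Ogn and Mfap4, a microfibril protein, at 840 and 792 CPM against 1371 and 1300. Of 20 other matrix genes 0 passed in either direction, and of 26 collagen genes only Col27a1 was lower, at 21.0 and 20.1 CPM against 39.6 and 43.1, while Col1a1 stood at 1308 and 1322 CPM against 1709 and 1688. Among signalling genes, Wnt4 was at 31.6 and 41.6 CPM against 55.4 and 65.5, the Wnt inhibitor gene Sfrp2 at 36.1 and 36.1 against 57.8 and 61.2, and the IGF binding protein gene Igfbp6 at 422 and 415 against 681 and 727. Each was lower past the fold, from lists in which 2 of 12 Wnt genes and 1 of 9 IGF genes were lower and 0 higher, but Wnt4 and Sfrp2 came within 1.5-fold under 2 alternatives each. In the imprinted list, of 13 counted, Meg3, a long noncoding RNA, was lower, at 3334 and 3678 CPM against 5375 and 6000, and Nnat was higher, at 54.9 and 59.7 against 22.7 and 20.4. For Meg3 the mean per cell differed little, at 48.2 and 56.1 UMIs against 51.3 and 58.1.

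Transcription factors and receptors by which interstitial progenitors are known were at like levels in both classes. Of 22 such factors 0 were lower and 1, Prrx1, was higher, with a list median of 0.01 and 0.03 on the log2 scale. Nr2f2, an orphan nuclear receptor, stood at 790 and 971 CPM in the members against 703 and 841, Tcf21 at 306 and 365 against 280 and 337, and Lhx9 at 238 and 274 against 250 and 268. Prrx1, a homeobox gene of mesenchyme, was at 40.5 and 47.7 CPM against 22.1 and 26.4. In hedgehog signalling, 1 of 11 genes was higher and 0 lower. The higher one, Gli3, was at 40.4 and 43.4 CPM against 20.9 and 21.0, whereas the pathway target Gli1 stood at 52.7 and 57.8 against 54.1 and 53.9 and the receptor gene Ptch1 at 309 and 354 against 304 and 337. Neither the 4 PDGF genes nor the 6 Notch genes had a member past the fold, and Pdgfra itself, though part of the rule, stood at 385 and 401 CPM against 430 and 459.

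To see which stromal subtype the members came from, the genes of the 2 stromal subtypes of this testis, the Lum/Dpt/Aspn interstitial cells and the Tbata/Cyp26b1/Smoc2 cells, were counted in each cell at 5000 UMIs. Of 9 genes of the first set Aspn was lower and Fbln2, a fibulin at 28.5 and 33.0 CPM against 15.3 and 17.4, higher, and of the 3 genes of the second 0 were past the fold. The members carried both sets. Smoc2, a matricellular protein, had a UMI in 88.8% and 88.6% of members and in 92.7% of non-cycling cells of both libraries. Tbata was found in 23.3% and 17.0% of members against 24.8% and 18.4%, and Cyp26b1, which breaks down retinoic acid, in 25.4% and 15.4% against 25% and 23.0%. Lum, the proteoglycan lumican, was found in 25.8% and 34.4% against 24.5% and 32.2%, and Dpt, which encodes dermatopontin, in 31.5% and 33.7% against 39.3% and 41.5%. In cycling Sertoli cells the shares were 0.668% and 0.434% for Lum, 0.501% and 1.30% for Dpt, 1.5% and 1.3% for Tbata and 4.01% and 3.47% for Smoc2. Cyp26b1 was found in more of them, 7.68% and 7.81%, and is not taken as a gene that Sertoli cells lack. The Sertoli cells had a median depth of 18587 and 20080 UMIs before thinning, against 14162 and 14851 in the members.

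Within the Lum/Dpt/Aspn set Dpt and Aspn were held by fewer members, and the gap was wider for Aspn, found in 14.1% (11.2 to 17.4) and 15.9% (12.5 to 19.9) against 29.3% (27.4 to 31.3) and 34.1% (32 to 36.2). Ogn was found in 39.3% (35.1 to 43.7) and 33.2% (28.5 to 38) against 76.8% (75 to 78.6) and 77.5% (75.6 to 79.3), with 1.34% and 0.434% of cycling Sertoli cells as background. Without thinning the Ogn shares were 57.4% and 54.2% against 85.7% and 87.5%, and those of Aspn 25.9% and 29.7% against 38.1% and 44.1%. Ccnd2 was found in 38.7% and 35.9% of members against 69.2% and 65.4%. Nr2f2, by contrast, had a UMI in 94.9% and 97.5% of members and in 95.1% and 96.7% of the non-cycling cells, and Lhx9 in 62.4% and 65.3% against 64.2% and 66.7%. Acta2, the smooth muscle actin, was found in more members, 52.3% and 52.7% against 41.4% and 40.4%, with 2.84% and 4.12% in cycling Sertoli cells.

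A cell was next said to carry a set when it held at least 3 UMIs of the 3 genes in its name at 5000 UMIs. By this limit 19.6% and 30.6% of members carried the Lum/Dpt/Aspn set, against 33.1% and 36.3% of the non-cycling cells. By the whole list of that subtype 79.6% and 83.3% of members passed, against 82.9% and 85.7%. The Tbata/Cyp26b1/Smoc2 set was carried by 61.8% and 55.4% against 71.4% and 72.2%. Without thinning its median in wild-type members was 9 UMIs, with Smoc2 at 8 and Tbata and Cyp26b1 at 0. The set is thus mostly a count of Smoc2, and carrying it does not mark a subtype. The share of cells that cycled was then read by what each cell carried. Of cells with neither set 26.1% (22.6 to 29.9) and 24.2% (20.4 to 28.3) were members, of those with the Lum/Dpt/Aspn set alone 15.8% (11.6 to 20.6) and 21.8% (17.1 to 27.1), of those with the Tbata/Cyp26b1/Smoc2 set alone 18.7% (16.7 to 20.9) and 14.4% (12.3 to 16.6), and of those with both 9.88% and 10.3%. The order of the single sets was opposite in the libraries, and their intervals overlapped within each except in the knockout-labelled library. The share was also read by single genes and sets at 5000 UMIs. Ogn, Aspn and Wnt4 were already counted as lower in the members, so splits that hold them restate that difference and add no support to it. By Ogn it was 35.8% (32.6 to 39.0) of 867 and 35.2% (31.7 to 38.7) of 751 cells without an Ogn UMI, 18.9% and 16.6% at 1 UMI, 10.1% and 5.71% at 2 UMIs, and 4.17% (2.66 to 6.20) of 551 and 2.40% (1.24 to 4.15) of 501 at 4 or more. By the Tbata/Cyp26b1/Smoc2 set it was 25.8% and 23.0% without a UMI and 15.3% and 10.9% at 4 or more, and by the Lum/Dpt/Aspn set 21.0% and 21.2% without a UMI and 10.8% and 12.5% at 4 or more. Steps between did not all follow this order, with 22.7% and 11.9% at 1 UMI and 14.0% and 17.8% at 3 UMIs of the Lum/Dpt/Aspn set. By Wnt4, a secreted signal, it was 19.5% and 17.3% without a UMI and 12.7% and 11.3% with at least 1. The order was the opposite by some genes. By Tcf21, a transcription factor of mesenchymal cells, the share was 14.5% and 13.6% without a UMI and 19.6% and 16.9% with at least 1. By Acta2, the smooth muscle actin, it was 15.4% and 13.3% against 21.7% and 19.9%. By Lhx9 the order was not the opposite, and the shares were close, at 18.8% and 16.6% without a UMI and 17.8% and 15.9% with at least 1. Since thinned UMIs of a cell add to a fixed sum, more UMIs of cycle genes leave fewer for others. The cycle lists took 2.24% and 2.28% of the members' UMIs, and their part in these shares was not tested.

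**Figure D2:**
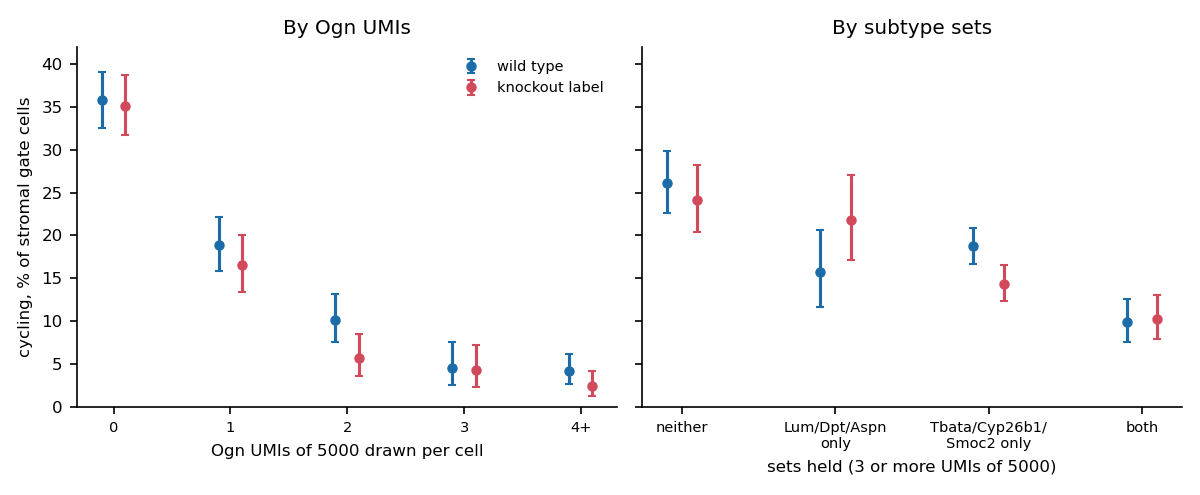
Percent of gated stromal cells that were cycling, by Ogn UMIs of 5000 in the cell and by the subtype sets the cell carried, for the wild-type library and the knockout-labelled library, with exact 95% intervals as bars. The share went from 35.8% and 35.2% without an Ogn UMI to 4.17% and 2.40% at 4 or more. Ogn was already counted as lower in the members, so this order restates that difference.

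The level of Ogn was also read over steps of Mki67 and Top2a UMIs, the measure of the rule. At 0, 1, 2 to 3, 4 to 9, 10 to 29 and 30 or more UMIs, Ogn was at 466, 339, 242, 210, 184 and 75.1 CPM in wild type and at 465, 386, 212, 172, 177 and 76.9 in the knockout-labelled library. Since the steps are of the values that chose the members, these levels are a description. Ccnd2 went from 300 and 274 CPM at 0 UMIs to 92.3 and 82.6 at 30 or more. Nr2f2 had no such order, at 703 and 846 CPM at 0, 665 and 843 at 10 to 29 and 908 and 1140 at 30 or more. Pclaf was highest at 10 to 29 UMIs, at 1115 and 1024 CPM, and lower at 30 or more, at 704 and 715.

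**Figure D3:**
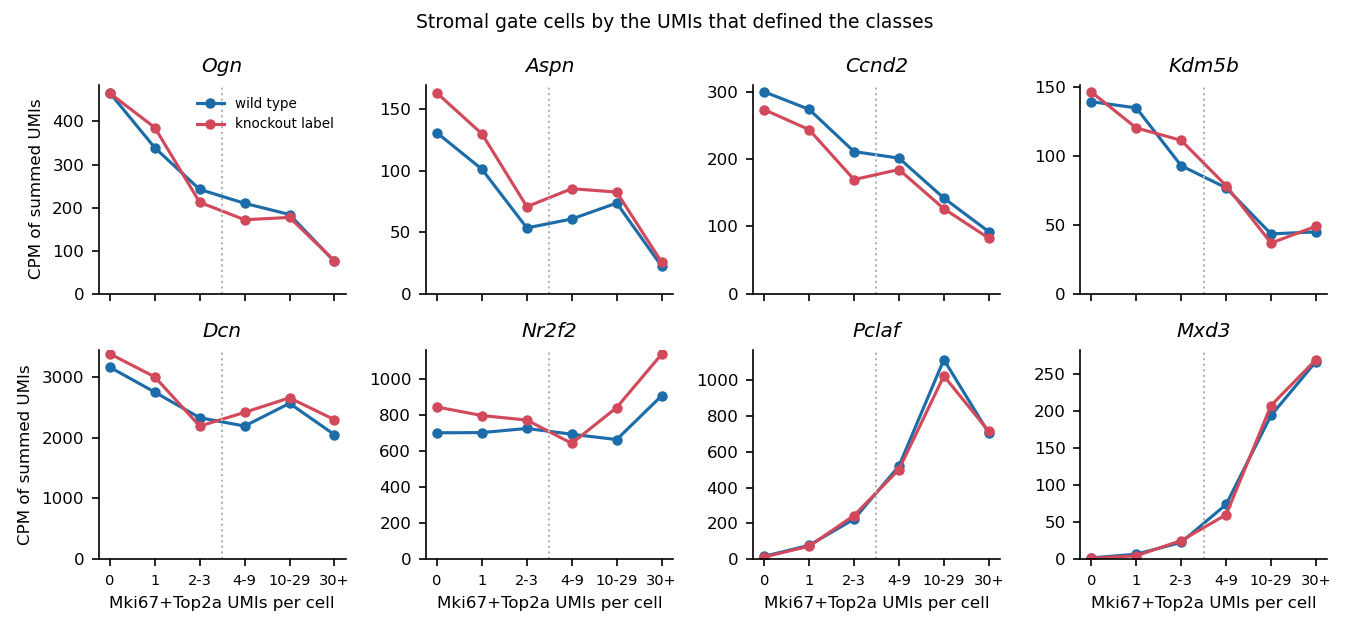
CPM of 8 genes over steps of Mki67 and Top2a UMIs in gated stromal cells (n = 2029, 236, 99, 120, 181 and 213 cells in wild type and 1828, 192, 87, 70, 144 and 183 in the knockout-labelled library), the dotted line marking the threshold of the rule. Ogn, Aspn, Ccnd2 and Kdm5b were lower toward the right, whereas Nr2f2 ended above its level at 0 UMIs.

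To place the members within the cycle, each was ranked by the percent of its S and G2/M list UMIs that came from the G2/M list, Mki67 and Top2a left out, and each library was cut into 3 ranges, of 171, 171 and 172 and of 132, 132 and 133 cells. The median percent was 76.1 and 79.4, and 58 and 50 cells lay within 2 points of a cut, so the ranges are not types. Their median depth was close, 13859, 14895 and 13272 UMIs in wild type and 14465, 15222 and 14874 in the knockout-labelled library. Of 8708 genes outside the lists that made the ranking, 584 (6.71%) were higher at the G2/M end than at the S end and 821 (9.43%) lower. The ranking rests on S phase genes, so that cycle genes which vary with them describe it and are no result. Ccne1 stood at 99.8 CPM in the S range and 3.59 in the G2/M range of wild type and at 118 and 6.73 in the knockout-labelled library. Pclaf was at 1182, 873 and 312 CPM over the wild-type ranges and at 1199, 792 and 350 over the others. The germ cell marker Dazl, named after its values were seen, was at 99.8, 20.1 and 1.35 CPM over the wild-type ranges and at 23.8, 0 and 0.518 over the others, where 1 cell held 98.0% of the members' UMIs. At least 5 germ cell marker UMIs were held by 5 cells of the wild-type S range, 3 of them called doublets, by 1 of the middle and 0 of the G2/M range, and by 1, 0 and 0 cells of the other library, and their part in the 821 genes was not tested. At the other end Ccnb1 went from 31.8 CPM in the S range to 497 in the G2/M range of wild type, and Arl6ip1, a membrane protein of the endoplasmic reticulum, from 141 to 1541.

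Ogn was lower toward the G2/M end, at 240, 108 and 49.3 CPM over the wild-type ranges and at 221, 82.5 and 67.3 over those of the knockout-labelled library, a ratio of 0.205 (0.166 to 0.252) and 0.305 (0.249 to 0.372) between the ends. Aspn had the same order, at 80.3, 40.9 and 14.4 CPM and at 96.5, 34.1 and 28.5, and Ecm2 was at 18.7, 13.4 and 10.3 and at 17.3, 14.2 and 7.25. Ccnd2 stood at 207, 90.1 and 85.2 CPM and at 157, 97.2 and 80.3. The S range of the members thus lay between the non-cycling cells, with Ogn at 452 and 457 CPM and Ccnd2 at 297 and 271, and the later ranges. Kdm5b, by contrast, was lowest in the middle range, at 48.1, 35.4 and 70.0 CPM and at 40.6, 35.6 and 73.0.

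Of the CDK inhibitors Cdkn2c, Cdkn2d and Cdkn1b had the opposite order. Cdkn2c was at 103, 255 and 345 CPM over the wild-type ranges and at 103, 253 and 290 over the others, a ratio between the ends of 3.37 (2.92 to 3.89) and 2.8 (2.39 to 3.3). Cdkn2d stood at 39.0, 112 and 112 CPM and at 44.0, 126 and 143, and Cdkn1b at 41.7, 81.1 and 102 and at 46.0, 70.7 and 112. These 3 of the 4 inhibitors counted were higher at the G2/M end in both libraries. The other, Cdkn1c, stood at 273, 254 and 182 CPM and at 245, 224 and 174, a ratio of 0.667 (0.588 to 0.755) and 0.709 (0.615 to 0.816), the order of Ogn and Ccnd2. Mxd3 was highest in the middle range, at 126, 282 and 215 CPM and at 160, 275 and 220. Of the 22 interstitial transcription factors 5, among them Nr2f2 and Prrx1, were higher at the G2/M end and 0 lower, with a list median of 0.33 and 0.39. Nr2f2 was at 566, 900 and 910 CPM and at 704, 1084 and 1126. Its levels in the non-cycling cells, 703 and 841 CPM, thus lay between those of the S and the G2/M ranges. Pdgfra was at 272, 393 and 503 CPM and at 298, 420 and 487.

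**Figure D4:**
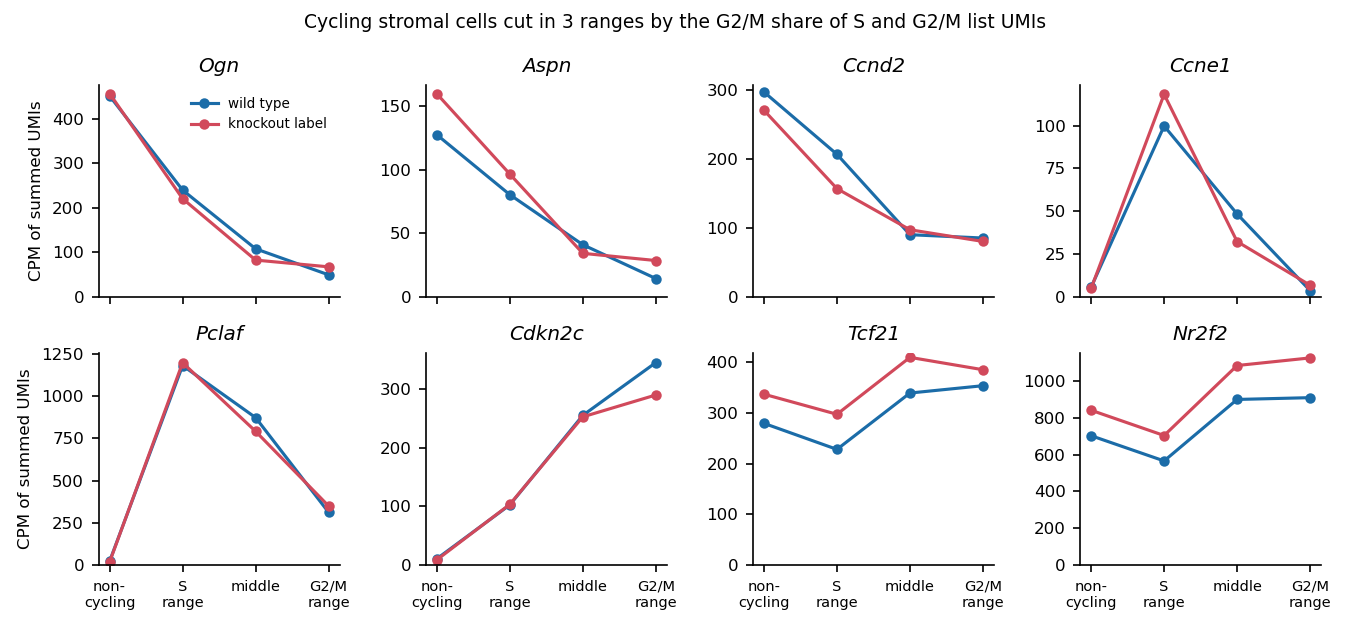
CPM of 8 genes in non-cycling stromal cells and in the S, middle and G2/M ranges of the cycling cells, for the wild-type library and the knockout-labelled library. Ogn, Aspn, Ccnd2 and Ccne1 were lower and Cdkn2c, Tcf21 and Nr2f2 higher in the G2/M range than in the S range of both libraries.

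Among the genes outside the pathway lists, the 10 farthest below the non-cycling level were Lyz2, Tmem150a, Ren1, Aldoa, Fabp3, Pygm, Kdm7a, Kdm5b, Gsta4 and Rangrf, of which Lyz2 is one of the macrophage markers. Aldoa, the aldolase of glycolysis, was at 87.5 and 78.7 CPM against 289 and 269, a ratio of 0.303 (0.279 to 0.329) and 0.292 (0.266 to 0.321). Kdm5b, a histone H3 demethylase, was at 50.1 and 49.2 CPM against 139 and 144, a ratio of 0.36 and 0.342, and Kdm7a, another histone demethylase, at 9.96 and 7.26 against 30.2 and 29.6. Fabp3, a fatty acid carrier, was at 34.3 and 47.5 CPM against 172 and 145, with 47.6% of the members' UMIs in 1 cell of the knockout-labelled library, and Tmem150a, a membrane protein, at 3.77 and 5.12 against 22.7 and 22.1. At 5000 UMIs a cell, Aldoa was found in 27.6% and 28.1% of members against 70.6% and 69.3%, and Kdm5b in 19.4% and 22.5% against 50.3% and 49.0%.

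Several of the lower genes came from few cells. Of 7 genes of the Leydig list 5 were lower, with a median log2 ratio of -2.37 and -1.07, but 33 and 21 non-cycling cells held at least 100 Leydig UMIs each, against 1 and 3 members, of which 1 and 2 were called doublets. Of those non-cycling cells 4 and 6 were called doublets. Cyp11a1, which cleaves the side chain of cholesterol, was at 16.5 and 124 CPM in the members against 313 and 286, and 1 cell gave 52.0% and 67.6% of the members' UMIs. Cyp17a1, the next enzyme, was at 2.96 and 65.5 CPM against 196 and 139, and Hsd3b1 at 12.9 and 83.2 against 186 and 158. At 5000 UMIs a Cyp11a1 UMI was found in 2.94% and 4.81% of members and in 4.01% and 4.56% of cycling Sertoli cells, and was read as background. In the non-cycling stromal cells the share was 4.26% and 4.32%, with intervals that overlapped those of the members. With cells of at least 10 Leydig UMIs left out, Cyp11a1, Cyp17a1 and Hsd3b1 came under the filter on low values. Ren1, the renin gene, had 26.8% and 47.7% of its non-cycling UMIs in 1 cell, and Lyz2, a macrophage gene, was found in 21 and 34 non-cycling cells. Aldh1a1, a retinoic acid enzyme at 85.0 and 66.2 CPM against 145 and 139, had a mean log2 ratio of -0.91, and of -0.53 without the cells of at least 10 Leydig UMIs.

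The same comparison in Sertoli cells showed which differences were also seen in another dividing cell type. Of 8411 genes 483 (5.74%) were higher and 109 (1.3%) lower in cycling than in non-cycling Sertoli cells. Of the genes higher in the cycling stromal cells 772 were counted in Sertoli cells, of which 423 were also higher, and of the lower genes 218 were counted, of which 42 were also lower. None went past the fold in the opposite direction. Aldoa and Kdm5b were among those lower in both, with Aldoa at 447 and 373 CPM in cycling against 879 and 811 in non-cycling Sertoli cells and Kdm5b at 135 and 108 against 218 and 203. Ccnd2 was not past the fold there, at 818 and 984 CPM against 929 and 1148. Nnat stood at 90.3 and 86.5 CPM against 71.3 and 67.9. Cdkn2c was higher in both, at 88.7 and 86.7 CPM against 7.28 and 4.34. Kif23 had a smaller ratio in Sertoli cells, at 275 and 314 CPM against 30.2 and 33.3. Sertoli cells hold few Ogn UMIs, with 2.15 and 2.82 CPM in the cycling ones, so that Ogn could not be compared. Of the proteoglycans only Dcn passed the filter there, with a log2 ratio of -0.28 and -0.24, within 1.5-fold. The share of ribosomal protein genes was lower in cycling Sertoli cells as well, 17.2% and 17.7% against 20.4% and 21.2%.

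**Figure D5:**
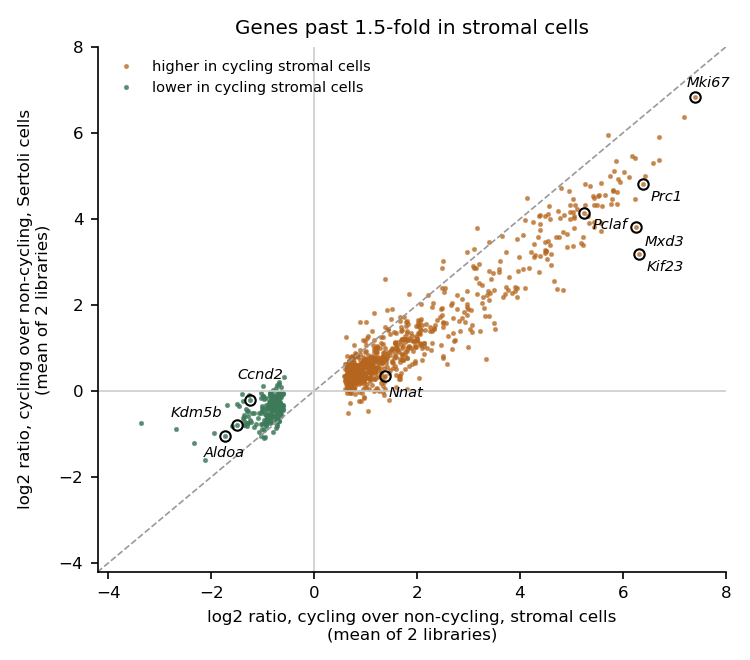
Log2 ratio of cycling over non-cycling cells, mean of both libraries, in stromal cells (x) and in Sertoli cells (y) for genes past the fold in stromal cells, with the line of equal ratios dashed. Kdm5b and Aldoa lie below 0 on both axes, Ccnd2 lies farther below 0 on the x axis than on the y axis, and Mxd3, Kif23 and Mki67 lie toward the upper right.

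The libraries were then set side by side within the members. Of 8806 genes 59 (0.67%) were at least 1.5-fold higher in the knockout-labelled library and 57 (0.647%) lower, with a median of -0.00 on the log2 scale. Genes carried by few cells led both directions. Cyp17a1 was at 2.96 and 65.5 CPM, Cyp11a1 at 16.5 and 124 and Hsd3b1 at 12.9 and 83.2, and in the knockout-labelled library 1 cell held 75.6%, 67.6% and 78.0% of their UMIs. On the lower side the germ cell gene Dazl was at 41.4 and 8.09 CPM, from 11 and 2 cells, and Tuba3a, a tubulin gene of the testis, at 24.2 and 0.825, from 8 and 3 cells. Hoxc10, a posterior Hox gene, was at 22.6 CPM in wild type and 52.3 in the knockout-labelled library, a ratio of 2.31 (1.91 to 2.81), and Hoxd11, another, at 11.7 and 28.7, a ratio of 2.45 (1.89 to 3.21). The non-cycling cells had the same order, at 17.8 and 40.3 CPM for Hoxc10 and 8.0 and 22.2 for Hoxd11. Lum was at 111 and 203 CPM in the members, a ratio of 1.83 (1.67 to 2.00), and at 133 and 177 in the non-cycling cells. Of 13 immediate early and heat shock genes, which respond to stimulation and stress, 5 were lower and 0 higher, with a list median of -0.51, and of -0.75 in the non-cycling cells. Fos was at 77.4 and 42.1 CPM in the members and at 111 and 42.6 in the non-cycling cells, and Jun at 421 and 252 against 627 and 320. With 1 library for each label, genotype, animals and handling cannot be told apart.

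In the promoter windows of 300 bases (250 before to 50 after the start, RefSeq GRCm38.p6), TTTGAA was found on either strand in 17.89% of all 32851 windows. It was found in 12.2% of 8882 windows of the genes counted, in 25.63% of 870 of the higher genes, in 54.86% of 144 of those at least 8-fold higher and in 14.91% of 322 of the lower genes. CCAAT was found in 37.41%, 38.34%, 50.57%, 71.53% and 34.78% of the same sets, and a motif with both, TTTGAA or TTCGAA together with CCAAT, in 7.525%, 6.012%, 18.28%, 47.22% and 4.969%. TTCGAA, the other CHR core, was found in 1.562% of all windows, 2.218% of those of the genes counted and 8.333% of those at least 8-fold higher. Any of 3 E2F motifs (TTTCCCGC, TTTGGCGC or TTTGGCGG) was found in 2.1% of all windows, 4.188% of those of the genes counted, 11.15% of the higher genes and 1 of 322 of the lower. Windows were found for 706 of the 866 higher and 257 of the 318 lower genes, and some genes have more than 1. These shares describe letters in the windows, and binding was not measured.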

How the data were processed

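Single cells of whole testes at postnatal day 2 were captured with a 10x Genomics 3′ kit. The authors deposited 1 table of UMI counts per gene and barcode, not normalized and before their filter on cells. Cell Ranger 3.1.0, Seurat 3.1.5 and GRCm38 are named in the submitters' processing notes, and GFP and CRE had been added to the reference. The suffix with 5423 barcodes holds fewer than the number of wild-type cells kept by the study, so the other, with 6763, was taken as wild type. Barcodes under 2000 genes or over 10% mitochondrial UMIs were left out. The members and lists were chosen with earlier results of these data known.

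UMIs were summed per class and library and scaled to CPM (per 1000000). Ratios have exact conditional binomial intervals, sums exact Poisson and shares exact Clopper-Pearson intervals at 95%. The log2 ratio has a pseudocount of 1 CPM, and genes with a mean of at least 10 CPM over the 4 sums were compared at a fold of 1.5. No test was run, since cells are not replicates. Cells were thinned to 5000 UMIs (seed 1), which left out 3 and 2 members and 57 and 52 non-cycling cells as too shallow. Scrublet (scanpy 1.11.5) was run on each library, and called doublets stayed in. Named genes were those of the rule, the 3 farthest past the fold in each list and the genes that define it, every CDK inhibitor and G1 cyclin, and the 10 highest and 10 lowest outside the pathway lists by the smaller of both libraries' log2 ratios. Genes named otherwise (Cenpp, Omd, Arl6ip1, Hoxc10, Hoxd11, Lum, Fos, Jun and list genes within 1.5-fold) were chosen after their values were seen. Some genes that this rule names are not reported here. The ratio was tested on simulated sums of 8555 genes for the comparison of cycling with non-cycling cells, where all 50 genes set 4-fold higher, all 50 set 2-fold higher, 43 of 44 set at 0.5 and all 36 set at 0.25 were called in the right direction, and 0 of 8375 unchanged genes were called. These sums were Poisson draws from a single profile for both libraries, with no spread between cells or animals. They check the calculation only and do not give the error of the calls in these data. Python 3.11.15, NumPy 2.4.6, SciPy 1.17.1, pandas 2.3.3 and matplotlib 3.10.9 were used. Each alternative changed a single choice, in the limits of the rule, the depth, doublets, scaling, pseudocount, filter and fold.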

Additional observations from a re-analysis of the deposited data

How the results depend on the processing

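Of 41 genes past the fold that were followed, 0 changed direction under the alternatives that gave them a value, up to 19 in number, and the other named genes were not followed. Over these the mean log2 ratio of Ogn lay between -1.95 and -1.67, that of Ccnd2 between -1.44 and -1.13 and that of Aspn between -1.61 and -1.35. Aldh1a1, Ecm2, Sfrp2, Wnt4 and Dazl came within 1.5-fold under some. The share of cycling cells in wild type and in the knockout-labelled library was 21.3% and 19.3% with at least 2 UMIs of Mki67 and Top2a, 14.7% and 14.0% with at least 8, 21.0% and 18.7% in cells of 8000 to 20000 UMIs, 19.9% and 18.1% with at least 3 Pdgfra UMIs, and 22.6% and 20.8% with at least 3000 genes. Without cells that hold 5 or more UMIs of another type's markers, an alternative chosen after seeing the data, it was 15.6% and 14.2%.

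Against 866 higher and 318 lower genes, the counts were 351 and 94 with a mean of at least 50 CPM, 1387 and 645 without a filter on low values, and 505 and 46 at 2-fold. With a pseudocount of 10 CPM 148 were lower. With the fold asked of a single library, 496 were lower without the wild-type library and 478 without the other. Scaling without cell cycle and ribosomal protein genes gave 883 higher and 446 lower. The G2/M list median, 4.76 over both libraries, was 5.01 in cells of 8000 to 20000 UMIs and again without cells of other markers, 4.98 with at least 3 Pdgfra UMIs, 4.93 with up to 5% mitochondrial UMIs and also after thinning, 5.14 against cells with 0 Mki67 and Top2a UMIs and 3.35 with a pseudocount of 10 CPM. The proteoglycan median, -0.60, was -0.51 in the same depth range, -0.52 with 3000 genes or without other markers, -0.41 after thinning, -0.65 under the other scaling, -0.48 with the larger pseudocount, -0.46 with the higher filter and -0.44 without one. The median of the interstitial factors, 0.06, was 0.0156 with at least 2 UMIs, 0.144 in the depth range, 0.0878 with 3000 genes, 0.0115 after thinning, 0.0102 under the other scaling, 0.0341 against cells with 0 UMIs, and 0.0134 to 0.0318 with 1 library alone. The cause of these shifts was not tested. Calls at low CPM are limited by depth. No paired analysis was possible because the barcodes carry no sample number.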
